A study of Mus musculus with 6 samples.

Results

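The 34 genes described here encode the transporters that bring glucose into a cell, the enzymes of glycolysis, the enzymes and carriers that make and export lactate, and the enzymes of the pentose phosphate pathway. They were chosen by gene symbol, and all 34 were among the 24410 symbols of the deposited expression table. RNA was sequenced from CD41+ cells of 6 samples of C57BL/6 mice aged 5 months: 3 wild type (WT 1 to WT 3) and 3 of genotype Txnip -/- (KO 1 to KO 3). Marrow cells without mature lineage markers had been cultured for 3 days, those of both genotypes with stem cell factor at 100 ng/mL and thrombopoietin at 20 ng/mL, and the CD41+ cells were then sorted. CD41 is a surface integrin subunit of the megakaryocyte lineage, whose mature cells release platelets. The labels do not say how the Txnip allele was made, nor whether each library is 1 animal. The tests therefore reflect only how much these libraries varied, part of which may be technical. Values for a genotype are listed in the order of libraries 1 to 3.

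Glucose enters blood cells through facilitative transporters of the Slc2a family and is trapped by hexokinases. Glycolysis then splits it into pyruvate, which lactate dehydrogenase can turn into lactate for export through monocarboxylate carriers, while the pentose phosphate pathway diverts glucose 6-phosphate to make NADPH and ribose. Txnip encodes an alpha-arrestin that is known to restrain glucose uptake by promoting the internalization of glucose transporters, an effect on protein that transcript levels do not measure.

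Levels are in FPKM, which divides the fragments of a transcript by its length and by the size of the library. Depth, estimated from the spacing of low FPKM values, was about 14500000 fragments in KO 1 and up to 25900000 in KO 3. Txnip was at 112, 228 and 143 FPKM in the WT libraries and was listed at 0, 0.04 and 0 in the KO libraries. Itga2b, which encodes CD41, lay between 83.2 and 152 FPKM, and Pf4, a platelet granule protein, between 465 and 1545. Transcripts of other blood cells were abundant too: the summed level of 18 neutrophil and granulocyte markers lay between 4140 and 9434 FPKM and that of 21 monocyte and macrophage markers between 1616 and 3044. Erythroid markers (15 genes) summed to between 218 and 363 FPKM and 12 lymphoid markers to between 90.3 and 125, with Cd3e at 0 in all libraries. Libraries with the same replicate number were taken to belong together across genotypes, and the KO and WT library of a number are called a pair. The labels do not state this pairing. It was inferred from these data, where same-numbered libraries deviated together (r = 0.81, 0.59 and 0.38 for numbers 1 to 3). Numbers 1 and 2 held the Y-linked Ddx3y (between 22.8 and 41.7 FPKM), while number 3 held none and had Xist at 48.1 and 91.6. In bulk RNA, fewer cells of a type and less RNA per cell cannot be told apart.

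The glycolytic enzymes of these cells were highly expressed, and aldolase and lactate dehydrogenase were carried almost wholly by 1 gene each. Together the 34 genes took between 1.12% (WT 2) and 1.75% (KO 2) of the FPKM sum of a library. The small RNAs Rpph1 and Rmrp took 30.4% of that sum in WT 2 and 11.0% in KO 2. Without them the 34 genes took between 1.61% (WT 2) and 1.97% (KO 2). In 8 of them the mean over libraries was above 500 FPKM, and 29 had at least 5 FPKM in every library. Gapdh, the dehydrogenase that yields the first NADH of glycolysis, had the highest mean, with 2245, 2097 and 2032 FPKM in the WT libraries, against 2361, 1808 and 1866 in the KO libraries. Its WT values lay inside the range of the KO values. Aldoa, the aldolase that cleaves fructose bisphosphate, came next at 1477, 2145 and 1860 FPKM in the WT libraries, against 1350, 2840 and 1617 in the KO libraries. Library 2 was the highest and library 1 the lowest in both genotypes. Pgk1, the kinase of the first ATP-yielding step, and Ldha, the lactate dehydrogenase subunit that favours lactate formation, followed in rank.

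**Figure D1:**
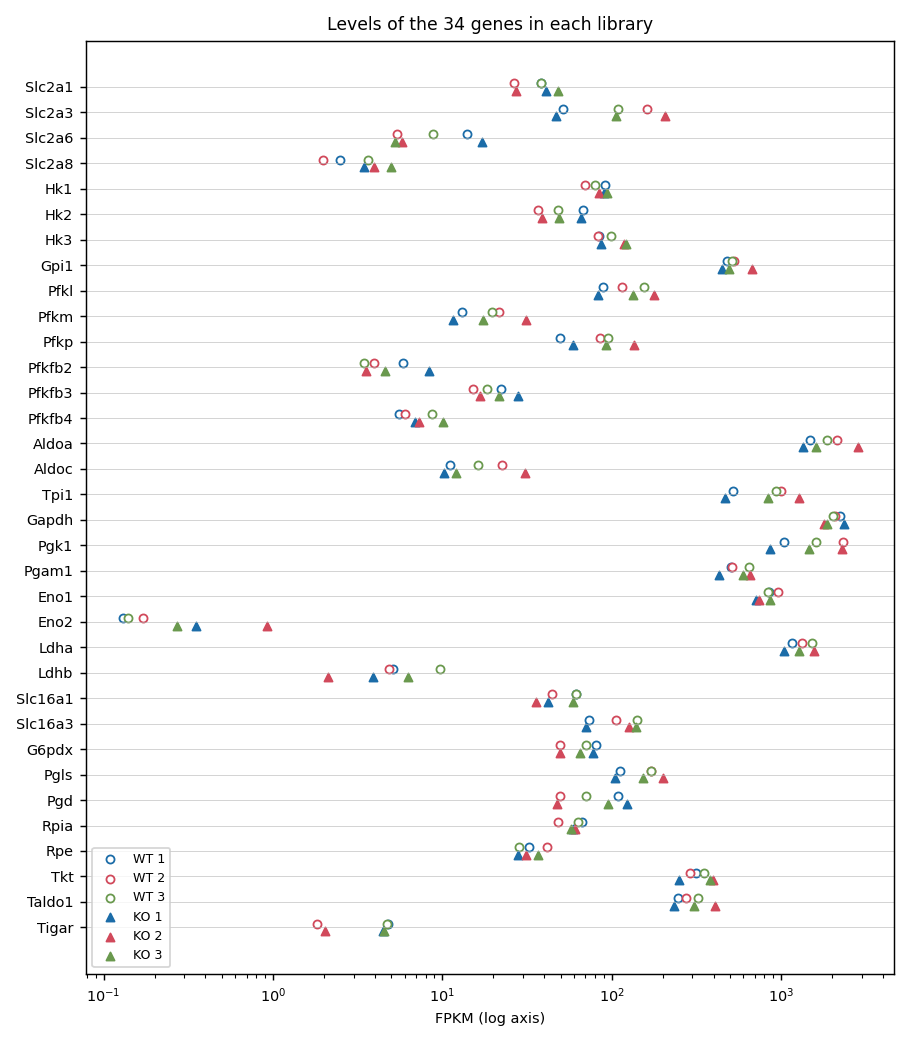
FPKM (log axis) of each of the 34 genes in each library. Open circles are WT and filled triangles KO, and colours mark the replicate number. Gapdh lies between 1808 and 2361 FPKM in the 6 libraries, while Eno2 stays below 1 FPKM in all 6, with its 3 KO libraries above its 3 WT libraries.

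The glucose transporters were mostly Slc2a3 and Slc2a1. Slc2a3, the high-affinity transporter GLUT3, was at 51.9, 162 and 110 FPKM in the WT libraries, against 46.8, 207 and 107 in the KO libraries. Slc2a1, the widely expressed GLUT1, was at 38.1, 26.7 and 38.6 FPKM in the WT libraries, against 40.9, 27.3 and 48.5 in the KO libraries. In both genotypes Slc2a3 was lowest in library 1 and highest in library 2, where Slc2a1 was lowest. Slc2a3 made up 48.8%, 82.6% and 68.3% of the summed FPKM of the 4 transporters in the WT libraries, against 43.2%, 84.8% and 64.6% in the KO libraries. Each library lay closer to the same-numbered library of the other genotype than to any library of its own. Slc2a6, a transporter of lysosomal membranes, ranged from 5.25 to 17.2 FPKM, and Slc2a8, an intracellular transporter, from 1.99 to 4.97.

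Hexokinase transcripts came from 3 genes in similar amounts. Hk3, the isoenzyme typical of myeloid cells, made up 40.7% ± 5.23 of their summed FPKM in the WT and 43.5% ± 7.02 in the KO libraries (SD, n = 3 each). Hk1, the widely expressed mitochondrial hexokinase, made up 36.4% ± 1.06 in the WT and 35.9% ± 1.17 in the KO libraries, and Hk2, the inducible one, 22.9% ± 4.48 and 20.6% ± 5.86 (SD, n = 3 each). These differences between genotypes were smaller than the spread within a genotype. The liver-type phosphofructokinase Pfkl made up 56.0% ± 3.52 of its step in the WT and 53.5% ± 1.54 in the KO libraries, the platelet-type Pfkp 35.4% ± 2.77 and 38.6% ± 0.51, and the muscle-type Pfkm 8.56% ± 1.22 and 7.89% ± 1.03 (SD, n = 3 each). The Pfkp share was 32.7%, 38.2% and 35.4% in the WT libraries, against 38.5%, 39.2% and 38.2% in the KO libraries. The 3 KO shares lay above the 3 WT shares, though KO 3 and WT 2 round to the same value. Isoenzyme shares are values without a test.

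Aldolase and lactate dehydrogenase were carried almost wholly by 1 gene each. Aldoa made up 99.1% of aldolase FPKM in both genotypes (SD 0.15 in WT and 0.19 in KO, n = 3 each), the brain-type Aldoc being the rest. Ldha made up 99.5% ± 0.14 of lactate dehydrogenase FPKM in the WT and 99.7% ± 0.18 in the KO libraries (SD, n = 3 each). Pfkfb3, which makes the phosphofructokinase activator fructose 2,6-bisphosphate, made up 62.3% ± 3.42 of the 3 PFKFB genes in the WT and 61.7% ± 2.60 in the KO libraries (SD, n = 3 each). Slc16a3, the lactate exporter MCT4, made up 54.5% of the FPKM of the 2 lactate carriers in WT 1, 70.5% in WT 2 and 69.7% in WT 3. In the KO libraries it made up 62.4%, 78.0% and 70.0%. Library 1 had the lowest share in both genotypes.

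**Figure D2:**
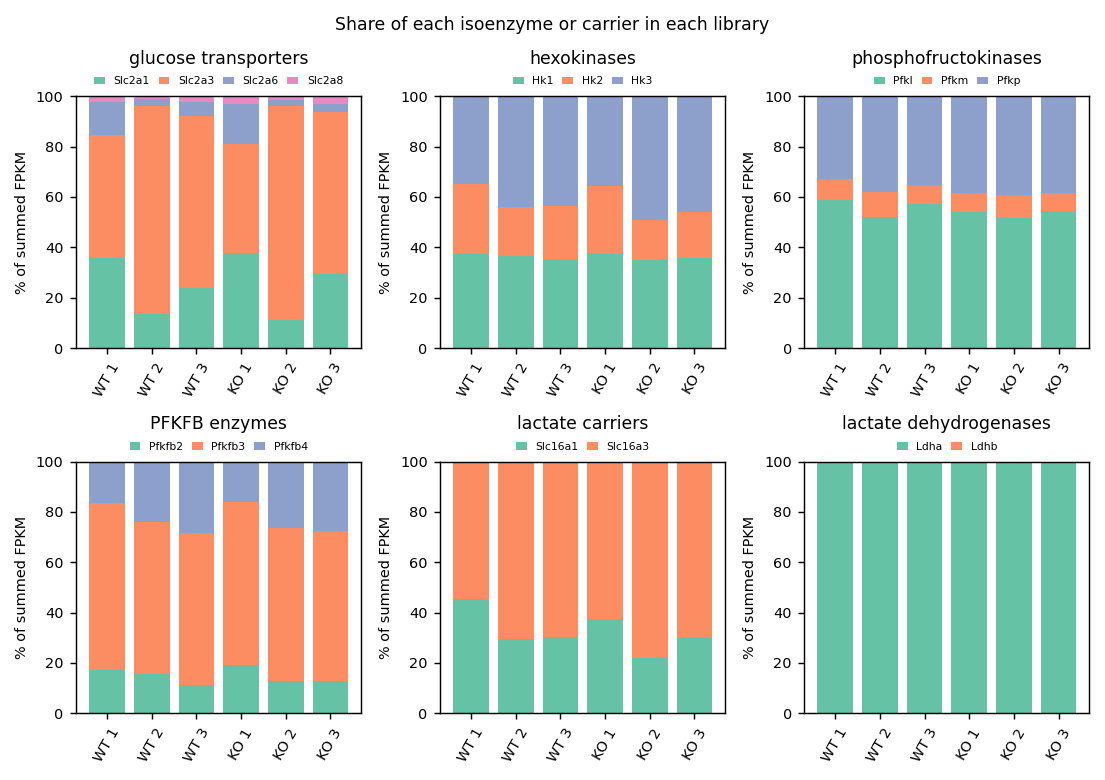
Percent of the summed FPKM of a step taken by each isoenzyme or carrier, 1 bar per library. The glucose transporter and lactate carrier mixes follow the replicate number: Slc2a3 is at 48.8% and 43.2% in WT 1 and KO 1 and at 82.6% and 84.8% in WT 2 and KO 2. Ldha fills nearly the whole bar in every library.

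The first comparison asks whether loss of Txnip changed these genes. None passed the test. Of the 34, 33 had at least 1 FPKM in at least 3 libraries and were tested, and 0 of these were called in limma at an adjusted p under 0.05 (0.0178% of all 11249 tested genes were called). The smallest unadjusted p was 0.117, so 0 members had an unadjusted p under 0.05, where all tested genes gave 0.676%. With the replicate number as a block, limma again called 0 (0.0267% of all genes), and 2 members, Slc2a8 and Ldhb, had an unadjusted p under 0.05 (6.93% of all genes). Values were higher in KO for 21 members and lower for 12, a split near that of all 11249 tested genes (7131 and 4118). The median difference was 0.02 on the log2(FPKM + 1) scale, beside 0.06 for all tested genes. The split of the members rests on scaling and on library KO 2. Without KO 2, 13 members were higher and 20 lower (median −0.07, all genes 0.11). With the replicate block and without pair 2, 10 were higher and 23 lower (median −0.09, all genes 0.05). The split was 30 to 3 once every library had the same FPKM sum (median 0.20, all genes 0.22), 29 to 4 with such a sum without the 2 abundant small RNAs Rpph1 and Rmrp (0.14, all genes 0.16) and 25 to 8 after quantile normalization (0.12, all genes 0.01). In the fit without the block, the 95% interval of the difference lay within 1 log2 unit of 0 on both sides for 26 of the 33 members. With the replicate block, the interval bounds farthest from 0 were −0.99 (Ldhb) and 0.89 (Slc2a8). Smaller changes are not excluded by these data.

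In 0 of the 33 tested members did the 3 KO libraries lie all above or all below the 3 WT libraries, against 4.35% of all tested genes (3.32% all above). Differences had the same sign in all 3 pairs for 8 members (24.2%), beside 29.1% of all tested genes, a share near the background. The 5 higher in every pair (20.4% of all genes were) were Slc2a1, Slc2a8, Hk3, Pfkfb3 and Pfkfb4. The 3 lower in every pair (8.68% of all genes) were Pgk1, Ldhb and Slc16a1. The pairs themselves differed. In pair 1, 23 of the 33 members were lower in KO (median −0.09), in pair 2, 25 were higher (median 0.24), and in pair 3, 21 were lower (median −0.05). Over all tested genes the pair medians were 0.04, 0.09 and 0.05, with 6224, 6615 and 6499 of 11249 genes higher in KO. The majorities of pairs 1 and 3 depend on scaling. After quantile normalization 18 members were higher and 15 lower in pair 1, and 20 higher and 13 lower in pair 3. Of all tested genes, 5112 were then higher and 6115 lower in pair 1, and 5850 and 5376 in pair 3. With a common sum without Rpph1 and Rmrp the member counts were 16 to 17 and 20 to 13. Those of all tested genes were 7653 to 3595 and 8151 to 3088. Among other cell types, 10 of 12 tested mast cell and basophil markers had lower values in KO, beside 4118 of all 11249 tested genes. Of these markers 0 passed the test, and their part in these differences was not tested.

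**Figure D3:**
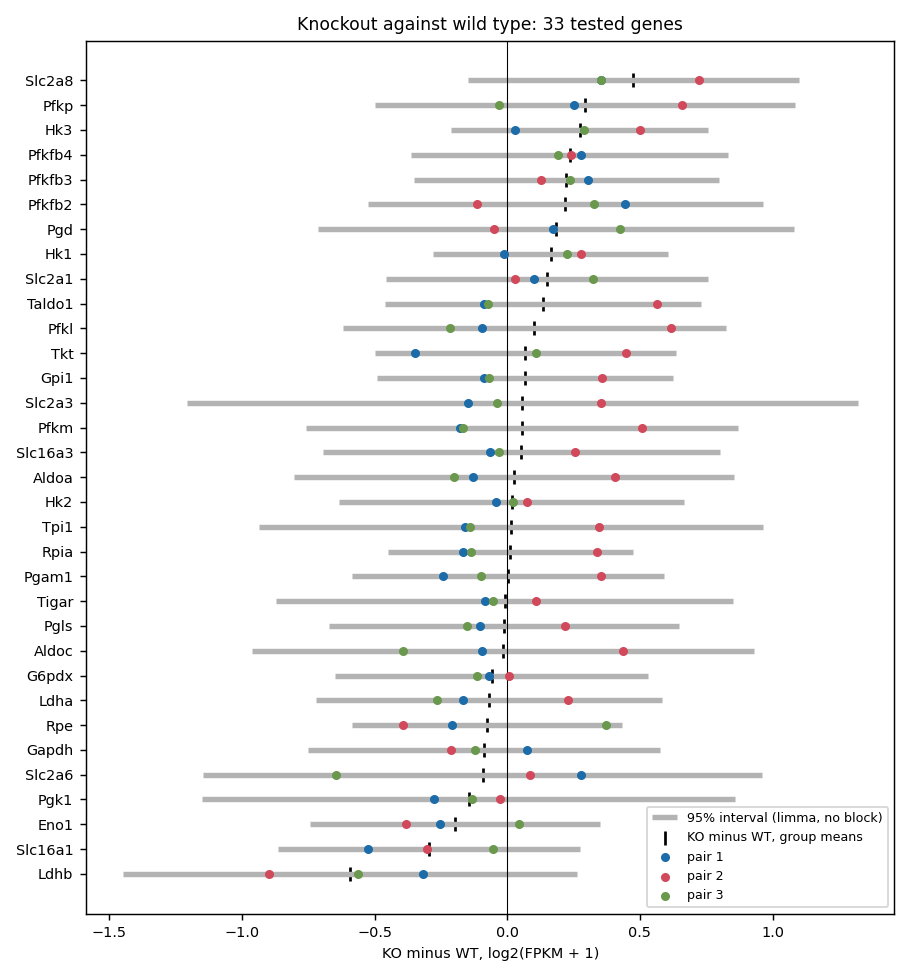
KO minus WT on the log2(FPKM + 1) scale for the 33 tested genes, ordered by the difference of group means (black tick). Grey bars are 95% intervals from limma without a block, and coloured points are the 3 pairs. Every interval includes 0, and pair 2 lies to the right of the other pairs for most enzymes.

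Among the transporters, Slc2a8 came nearest to a difference. It was at 2.48, 1.99 and 3.67 FPKM in the WT libraries, against 3.44, 3.93 and 4.97 in the KO libraries. WT 3 lay above KO 1, so the groups overlapped. The difference was 0.48 (SE 0.27; limma, adjusted p = 1.00; adjusted p = 0.683 with the replicate block), higher in 3 of 3 pairs. For Slc2a3 the difference was 0.06 (SE 0.56; limma, adjusted p = 1.00), with a 95% interval from −1.21 to 1.32, and it was higher in KO in 1 of 3 pairs.

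Of the hexokinases, Hk3 was at 84.7, 83.7 and 98.9 FPKM in the WT libraries, against 86.4, 119 and 121 in the KO libraries. KO 1 was among the WT values. Its difference was 0.27 (SE 0.21; limma, adjusted p = 1.00). Hk1 was at 91.1, 69.5 and 80.2 FPKM in the WT libraries, against 90.3, 84.5 and 94.0 in the KO libraries, a difference of 0.16 (SE 0.19; limma, adjusted p = 1.00). The WT 1 value was above 2 of the 3 KO values. Of 21 monocyte and macrophage markers, 19 had higher values in KO, beside 7131 of all 11249 tested genes, and 0 markers passed the test. By pair, 21, 13 and 9 of these markers were higher in KO, while Hk3 differed by 0.03, 0.50 and 0.29. The marker sum was 1616, 2094 and 2883 FPKM in the WT libraries, against 3044, 2010 and 2775 in the KO libraries. None of these markers was at 0 in any library, and their part in the Hk3 values was not tested.

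The 7 genes of upper glycolysis, from glucose 6-phosphate isomerase to triose phosphate isomerase, had opposite signs in different pairs, and 0 passed the test. All 7 were higher in KO in pair 2 (median 0.44), and also under each of the 3 other scalings. As deposited, 6615 of all 11249 tested genes were higher in pair 2. This count was 9714 with a common sum of FPKM, 7775 with that sum without Rpph1 and Rmrp and 6133 after quantile normalization. In pair 3 all 7 upper glycolysis genes were lower (median −0.17), and 5 or 6 of 7 with the other scalings. In pair 1, 6 of 7 were lower (median −0.10), but only 3 of 7 after quantile normalization. Gpi1, the isomerase, ranged from 450 to 678 FPKM, Pfkl from 83.7 to 178, Pfkm from 11.5 to 31.2 and Aldoc from 10.3 to 30.8. Pfkp had the largest difference of the group means, at 49.9, 85.1 and 95.4 FPKM in the WT libraries, against 59.6, 135 and 93.2 in the KO libraries. Its KO 2 value stood above all others. The difference was 0.29 (SE 0.35; limma, adjusted p = 1.00).

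The bifunctional PFKFB enzymes set the level of fructose 2,6-bisphosphate, and Tigar is a phosphatase that lowers it. Pfkfb3 was at 22.4, 15.3 and 18.4 FPKM in the WT libraries, against 27.9, 16.8 and 21.8 in the KO libraries, higher in 3 of 3 pairs but overlapping between groups (difference 0.22, SE 0.25; limma, adjusted p = 1.00). Pfkfb4 was at 5.54, 6.03 and 8.69 FPKM in the WT libraries, against 6.92, 7.30 and 10.1 in the KO libraries. Its groups overlapped as well, with a difference of 0.24 (SE 0.26; limma, adjusted p = 1.00). Pfkfb2 ranged from 3.47 to 8.31 FPKM and Tigar from 1.81 to 4.77.

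In lower glycolysis no gene passed. Values were lower in KO for 3 of its 4 tested genes, but for 1, 2 and 0 of 4 under the other scalings. Gapdh differed by −0.09 (SE 0.29; limma, adjusted p = 1.00), a value that turned positive under the 3 other scalings. Eno1, the main enolase, was at 845, 964 and 834 FPKM in the WT libraries, against 709, 740 and 861 in the KO libraries. KO 3 exceeded 2 of the WT libraries. Part of this signal cannot be assigned with certainty, because Eno1b, a near-identical copy, was listed at 294 to 405 FPKM in WT and at 218 to 572 in KO. The sum of Eno1 and Eno1b was 1224 ± 44.0 FPKM for WT and 1146 ± 144 for KO (SD, n = 3 each). Gapdh, Pgk1, Pgam1, Ldha and other abundant glycolytic genes also have processed pseudogenes, so their single values carry the same uncertainty. Pgam1, the phosphoglycerate mutase, ranged from 430 to 658 FPKM. Eno2, the neuronal enolase, was too low to be tested. It was listed at 0.13, 0.17 and 0.14 FPKM in the WT libraries, against 0.35, 0.92 and 0.27 in the KO libraries. It was the only one of the 34 genes whose groups did not overlap. Such groups were found in 4.35% of tested genes, a share that does not cover genes as low as Eno2.

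The lactate genes had lower values in KO for 3 of 4, and for 2 of 4 under each other scaling, none past the test. Ldhb, the subunit that favours the use of lactate, was at 5.10, 4.82 and 9.70 FPKM in the WT libraries, against 3.89, 2.12 and 6.25 in the KO libraries. Each KO library was below its WT partner, but KO 3 was above WT 1 and WT 2. The difference was −0.59 (SE 0.38; limma, adjusted p = 1.00; adjusted p = 0.664 with the block). Ldha was at 1166, 1331 and 1534 FPKM in the WT libraries, against 1039, 1560 and 1278 in the KO libraries, a difference of −0.07 (SE 0.29; limma, adjusted p = 1.00) that turned positive under the 3 other scalings. Slc16a1, the lactate carrier MCT1, was at 61.4, 44.4 and 61.7 FPKM in the WT libraries, against 42.4, 35.8 and 59.5 in the KO libraries (difference −0.29, SE 0.25; limma, adjusted p = 1.00). The groups overlapped through WT 2 and KO 3. Slc16a3 ranged from 70.3 to 142 FPKM. By RefSeq gene order on GRCm38.p6, Slc16a1 lies on chromosome 3 with Txnip, with 43 tested genes between them. Its difference did not pass the test. For Slc16a1, any effect of DNA linked to the Txnip allele and any effect of Txnip loss cannot be told apart.

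The upstream sequences of Slc2a8 and Ldhb, the 2 members nearest to a genotype difference, are shown because neither holds the letters ACGTG on either strand. These letters are a form of the core of the hypoxia response element and part of the E-box bound by Mondo and Myc factors. Both are the 250 bases before the RefSeq start on GRCm38.p6, written 5′ to 3′ on the gene's strand, chr2:32982084-32982333 (minus) for Slc2a8 and chr6:142507958-142508207 (minus) for Ldhb. No match says only that these letters are absent from this window. Another form of the core of the hypoxia response element, GCGTG, was not counted over promoters. Both windows below hold it, Ldhb as gcgtg and Slc2a8 as cacgc, its reverse complement. The absence of ACGTG is thus not an absence of that core.
Slc2a8: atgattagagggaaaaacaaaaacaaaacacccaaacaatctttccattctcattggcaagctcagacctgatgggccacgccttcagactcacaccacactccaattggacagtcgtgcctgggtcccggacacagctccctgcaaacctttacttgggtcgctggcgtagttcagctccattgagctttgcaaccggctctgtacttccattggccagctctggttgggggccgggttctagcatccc
Ldhb: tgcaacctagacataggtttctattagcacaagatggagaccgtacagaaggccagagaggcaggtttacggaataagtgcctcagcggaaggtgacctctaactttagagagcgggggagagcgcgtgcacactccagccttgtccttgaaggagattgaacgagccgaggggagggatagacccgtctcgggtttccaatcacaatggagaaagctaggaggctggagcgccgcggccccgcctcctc

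Of the 7 pentose phosphate genes 0 passed the test between genotypes. Tkt, the transketolase that links this pathway back to glycolysis, had the highest level, at 317, 290 and 352 FPKM in the WT libraries, against 249, 396 and 379 in the KO libraries. KO 1 was the lowest and KO 2 the highest of all 6. The difference was 0.07 (SE 0.25; limma, adjusted p = 1.00). Rpia, the ribose phosphate isomerase, ranged from 48.1 to 67.1 FPKM. Taldo1, the transaldolase, ranged from 233 to 410, Pgls, the lactonase, from 105 to 200, and Rpe, the ribulose phosphate epimerase, from 27.9 to 41.6.

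Many of these genes differed by replicate number. This was noticed in the data, and the term for the number in the blocked fit was then tested with limma's F test on all genes. Of the 33 members 19 passed (57.6%), beside 35.1% of all tested genes. In 10 of them (30.3%) number 2 was above number 1, beside 11.6% of all genes, and in 9 (27.3%) below, beside 23.6%. The counts rest on libraries WT 1 and KO 1. Without WT 1, 10 members passed (30.3%, beside 21.7% of all genes), and without KO 1, 5 did (15.2%, beside 15.1%), a share at the background. With no filter on low values 0 passed (18 at an unadjusted p under 0.05, and 0.0880% of all genes passed). The members also lay nearer to all genes with a common sum of FPKM (45.5% beside 42.2%) and with that sum without Rpph1 and Rmrp (54.5% beside 49.6%) than after quantile normalization (54.5% beside 30.5%). Scaling moved the directions. The median of all genes, number 2 minus number 1, was −0.19 as deposited, −0.55 with a common sum of FPKM, −0.50 with that sum without Rpph1 and Rmrp and −0.01 after quantile normalization. The members called above and below under the 3 scalings were 4 and 11, 7 and 11, and 10 and 8, beside 402 and 4347, 680 and 4894, and 1720 and 1713 of all tested genes. What a number stands for is not given in the labels. By Ddx3y and Xist, numbers 1 and 2 were male and number 3 female. The part of the term that involves number 3 therefore includes sex, which was not tested apart from it.

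The 10 members called with number 2 above number 1 were Slc2a3, the 6 upper glycolysis genes other than Gpi1, and Pgk1, Slc16a3 and Pgls. Slc2a3 had the smallest p, with number 2 above number 1 by 1.87 (SE 0.19; limma, adjusted p = 0.00102). Pgk1 was at 1044, 2327 and 1616 FPKM in the WT libraries, against 860, 2286 and 1473 in the KO libraries. Both genotypes had the same order, number 1 lowest and number 2 highest, with number 2 above number 1 by 1.28 (SE 0.19; limma, adjusted p = 0.00338). Tpi1, triose phosphate isomerase, was at 521, 1003 and 930 FPKM in the WT libraries, against 466, 1276 and 844 in the KO libraries, again lowest in number 1 and highest in number 2 (limma, adjusted p = 0.00473). Aldoc (1.23, SE 0.22) and Pfkp (0.96, SE 0.20) showed the same order of number 1 below number 2, and Slc16a3 (0.68, SE 0.18) was highest in number 3 (limma, adjusted p = 0.00561, 0.0104 and 0.00748). For all 7 upper glycolysis genes both number 1 libraries lay below both number 2 libraries. Non-overlap of these libraries in either direction was common, in 72.7% of members and 70.0% of all tested genes. Number 1 lay below number 2 in this way in 14 of 33 members and in 2798 of 11249 tested genes. It lay above in 10 members and in 5081 tested genes. With a common sum of FPKM number 2 was above number 1 in 6 of the 7, and in all 7 with the other scalings, and 2, 4 and 5 of them passed in place of 6.

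The 9 members called with number 2 below number 1 included both NADPH-yielding enzymes of the pentose phosphate pathway. The F test covers numbers 2 and 3 together. Pgd, which acts after G6pdx and Pgls, was at 110, 49.6 and 70.9 FPKM in the WT libraries, against 124, 47.9 and 95.6 in the KO libraries. The order was the reverse of that of Pgk1, with number 2 below number 1 by a difference of −1.24 (SE 0.19; limma, adjusted p = 0.00326). G6pdx, the first enzyme of the same pathway, was at 81.4, 49.4 and 71.0 FPKM in the WT libraries, against 77.5, 49.6 and 65.5 in the KO libraries (−0.67, SE 0.17; limma, adjusted p = 0.0293). Both oxidative enzymes were thus highest in number 1 and lowest in number 2 in both genotypes. Slc2a6 had a difference of −1.33 (SE 0.24; limma, adjusted p = 0.00494). Hk2 was at 68.2, 36.9 and 48.4 FPKM in the WT libraries, against 66.2, 38.9 and 49.1 in the KO libraries (−0.81, SE 0.17; limma, adjusted p = 0.0141). Tigar, Pfkfb2, Pfkfb3 and Slc2a1 also passed with lower values in number 2. Ldhb passed with its highest values in number 3 (0.69 above number 1, SE 0.22). Its number 1 and number 2 libraries overlapped (−0.36, SE 0.22).

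**Figure D4:**
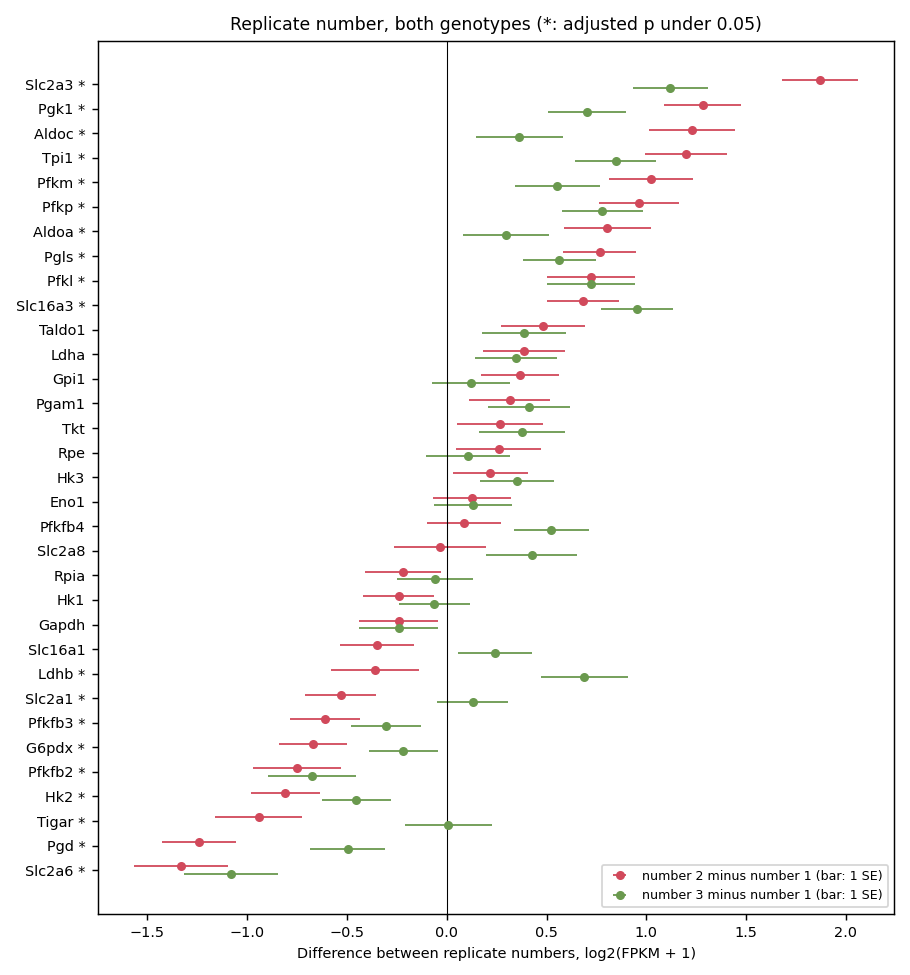
Difference of number 2 and of number 3 from number 1 on the log2(FPKM + 1) scale, both genotypes fitted together, with bars of 1 SE. Stars mark an adjusted p under 0.05. Slc2a3, Pgk1, Aldoc and Tpi1 lie above 1 for number 2, and Slc2a6 and Pgd lie below −1.

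The upstream sequences of Pgk1 and Hk2 are shown because they moved in opposite directions between numbers and both hold the letters ACGTG. Each is the 250 bases before the RefSeq start on GRCm38.p6, on the gene's strand, chrX:106186850-106187099 (plus) for Pgk1 and chr6:82774455-82774704 (minus) for Hk2, and capitals mark ACGTG on either strand, 2 matches in each.
Pgk1: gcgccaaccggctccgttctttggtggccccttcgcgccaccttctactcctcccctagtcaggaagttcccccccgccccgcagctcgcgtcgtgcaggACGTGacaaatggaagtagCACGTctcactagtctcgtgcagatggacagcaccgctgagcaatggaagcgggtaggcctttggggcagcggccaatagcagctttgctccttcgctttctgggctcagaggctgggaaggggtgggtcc
Hk2: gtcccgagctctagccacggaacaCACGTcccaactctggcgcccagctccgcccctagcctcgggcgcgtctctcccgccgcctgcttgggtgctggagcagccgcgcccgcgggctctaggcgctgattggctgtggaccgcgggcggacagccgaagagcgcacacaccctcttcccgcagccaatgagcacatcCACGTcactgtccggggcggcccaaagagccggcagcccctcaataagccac

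A RefSeq promoter entry was matched for 33 of the 34 genes, all but Slc2a3, with 47 windows. ACGTG on either strand was in 16 of these windows, in 22.0% of the windows of tested genes and in 16.6% of all 32851. The E-box CACGTG, which contains ACGTG, was in 5 windows of members, in 8.48% of those of tested genes and in 6.02% of all. Of the members called for the number, ACGTG was in 4 of the 9 with an entry that were higher in number 2 (Aldoa, Pfkm, Pgk1 and Slc16a3) and in 4 of the 9 that were lower (Hk2, Pfkfb2, Pfkfb3 and Slc2a1). A match is a description of letters, not of a bound site.

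Markers of cell types moved with the number as well. The summed level of 16 megakaryocyte markers was 796, 1941 and 1551 FPKM in the WT libraries, against 827, 2078 and 1163 in the KO libraries. This is the order of Slc2a3 and Pgk1, and Pf4 makes up most of the sum. Of the 15 tested, 7 passed for the number, beside 35.1% of all genes, 5 of them above and 2 below in number 2, and Gp6 was at 0 in WT 3. Itgb3, an integrin subunit that pairs with CD41, had another order, at 45.5, 25.4 and 30.4 FPKM in the WT libraries, against 41.5, 25.9 and 31.3 in the KO libraries. The 15 mast cell and basophil markers summed to 1681, 1201 and 1115 FPKM in the WT libraries, against 1539, 1140 and 699 in the KO libraries, highest in number 1, with Tpsab1 at 0 in 5 libraries and Mrgprb2 in 5. Of the 12 tested, 7 passed, all of them lower in number 2. Of 21 monocyte and macrophage markers 11 passed, 10 of them lower in number 2, and of 9 tested erythroid markers 5 passed, all higher in number 2. Of 16 tested neutrophil and granulocyte markers 9 passed, 4 above and 5 below in number 2. The part of these cells in the values of the glycolytic genes was not tested.

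Further genes of glucose metabolism, from a list of 70 of which 69 were in the table, were compared in the same fit. Of 40 tested, 26 had higher and 14 lower values in KO, beside 7131 and 4118 of all tested genes. In limma 0 passed without or with the block (0 and 2 at an unadjusted p under 0.05). The groups were apart in 0 of them, beside 4.35% of all tested genes. Their median difference was 0.07, beside 0.06 for all tested genes. Pkm, the pyruvate kinase of these cells, was at 1214, 1830 and 1700 FPKM in the WT libraries, against 1101, 2521 and 1425 in the KO libraries. This was the pattern of Aldoa, highest in number 2 and lowest in number 1. Bsg and Emb, the chaperones of the lactate carriers, lay between 205 and 323 and between 159 and 241 FPKM. Pygl, the liver-type glycogen phosphorylase, ranged from 84.9 to 177 and Galk1, galactokinase, from 73.4 to 162. The liver pyruvate kinase Pklr reached 0.19 FPKM at most and the insulin-responsive transporter Slc2a4 0.02, while the muscle enolase Eno3 ranged from 5.20 to 11.8. Pklr, Slc2a4 and Eno3 were chosen after their values were seen.

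Among 16 regulators of glucose sensing and hypoxia, 14 were tested and Txnip alone passed (−7.26 on the log2(FPKM + 1) scale, SE 0.28; limma, adjusted p = 2.02e-05). Arrdc4, a Txnip paralog and fellow alpha-arrestin, stood at 7.06, 14.4 and 5.64 FPKM in the WT libraries, against 12.7, 25.7 and 11.4 in the KO libraries (0.82, SE 0.40; limma, adjusted p = 1.00). WT 2 lay above KO 1 and KO 3, while each KO library lay above its partner, by 0.77, 0.79 and 0.90. With the replicate block the SE was 0.15 and Arrdc4 did not pass either (limma, adjusted p = 0.349). Hif1a, the hypoxia-inducible factor that controls many glycolytic genes, was between 25.1 and 34.4 FPKM, with a difference of −0.05 (SE 0.21; limma, adjusted p = 1.00).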

How the data were processed

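RNA-seq of 3 WT and 3 KO samples was analysed, grouped by the sample titles. The deposited table gives FPKM per gene symbol with 2 decimals, made by the authors. Per the submitters' processing notes, FastQC, Trimmomatic 0.39, STAR 2.7.0a and RSEM 1.2.31 were used with build mm9; settings and annotation: not given in the sources used here. Ambiguous reads are shared out by RSEM by estimation, so values of near-identical copies depend on each other. All 6 columns were used.

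The test covered genes that reached 1 FPKM in 3 or more libraries. They were tested with limma 3.58.1 (R 4.3.3; lmFit, then eBayes with its trend option) on log2(FPKM + 1) for the contrast of KO and WT, two-sided, with Benjamini-Hochberg adjustment over all 11249 tested genes and a threshold of 0.05. Adding 1 shrinks the fold changes of low genes. The fit was run on simulated data with planted changes larger than any KO minus WT difference of the members. That run does not show how often smaller changes would be found. Because deviations from the group means correlated between same-numbered libraries (r = 0.81, 0.59 and 0.38), the numbers were taken as pairs, and each result was refitted with a replicate block.

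Depth is approximate: fragments come from the step size between low values of single-transcript genes, with GENCODE M21 lengths (GRCm38) less 200 bases, another build than mm9. No interval was computed from it. Promoter windows come from RefSeq on GRCm38.p6.

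The members and gene lists were chosen with earlier results of these data known. Per-library values are given for members past the threshold, those whose groups do not overlap, the 8 of smallest p and the most abundant of each role. Genes of the replicate number term and Eno1b were named after their values were seen. The alternatives were other pseudocounts, filters and scalings, the block, and leaving out libraries or pairs.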

Additional observations from a re-analysis of the deposited data

How the results depend on the processing

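The count of 0 members called between genotypes, and of 0 further glucose genes, held under all 17 alternatives, with the replicate block too (0 of 33 members; smallest adjusted p = 0.664). The block changed no call. The median difference of the members was 0.02 and ran from −0.09 to 0.19 when a library or pair was left out. Some directions were not stable. With a common sum of FPKM, a common sum without Rpph1 and Rmrp, and quantile normalization, the KO minus WT difference of Gapdh was 0.0904, 0.0254 and 0.143 and that of Ldha 0.111, 0.0456 and 0.0855, 0 of them past the threshold. When 1 library was left out, the lowest values were −0.455 for Slc2a3, −0.290 for Aldoa (both without KO 2), −0.213 for Ldha and −0.0527 for Tkt (without KO 2), and the highest 0.605, 0.246, 0.0797 (without KO 1) and 0.280. Without a pair in the replicate block, Slc2a3 was at −0.0925, Aldoa at −0.166 and Tkt at −0.121 (pair 2), and Ldha at 0.0306 (pair 3). The cause was not tested.

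The replicate number term, added after seeing the data, called 19 members; without single libraries it called between 5 (without KO 1, beside 15.1% of all genes) and 27 (without WT 2, beside 52.6%), and 10 without WT 1 (beside 21.7%). With no filter on low values it called 0, and the cause was not tested. The difference of number 2 from number 1 kept its direction in all 14 settings for Slc2a3, Pgd, Pgk1, Tpi1, Slc2a6, Aldoc, Slc16a3 and Pfkp, but the calls did not all hold: 13 of 14 for Slc2a3, Pgd and Aldoc, 12 for Pgk1, Tpi1 and Slc2a6, 11 for Slc16a3 and 10 for Pfkp. Without KO 1 the limma adjusted p was 0.0686 for Pgk1, 0.104 for Tpi1, 0.0595 for Slc2a6, 0.143 for Slc16a3 and 0.0932 for Pfkp. With a common sum of FPKM Slc16a3 fell to 0.28 (limma, adjusted p = 0.0521) and Pfkp to 0.56 (limma, adjusted p = 0.136), and without WT 1 the limma adjusted p of Pfkp was 0.0506. Depth is known only approximately, so no detection limit is given for genes such as Eno2 that stay below 1 FPKM.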
